A study of Mus musculus with 40 samples.

Results

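The comparison set 4-OHT cultures of mouse neural stem cells at 144 h against 4-OHT cultures at 96 h, 5 of the 40 arrays of the series. The 144 h group had 2 arrays, with the replicate letters A and C, and the 96 h group had 3, with the letters A, B and C. They were taken by agent, time and letter from the sample titles, and no measured value entered the choice. The cells were primary neural stem cells from the telencephalon of E13.5 embryos on a 129/Svj;C57Bl/6 hybrid background, and they were grown on laminin with EGF and FGF-2, both at 20 ng/ml. Every culture, vehicle included, carried floxed Id1 (Id1L/L) and floxed Id2 (Id2L/L), lacked Id3 from the germ line (Id3-/-), and held Rosa-Cre-ER, a tamoxifen-inducible Cre at the ubiquitously active ROSA26 locus. Cultures of both 4-OHT groups received 4-hydroxytamoxifen (4-OHT, 250 nM in ethanol). The vehicle cultures of the same times, again 2 arrays at 144 h and 3 at 96 h, received ethanol and are set beside them. The labels do not say whether the letters are separate cultures or embryos, so p-values measure the spread between arrays, and cells without Cre given 4-OHT are not among these groups.

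Id proteins are helix-loop-helix proteins without a DNA-binding region. They bind E proteins and keep them from pairing with the factors that drive differentiation. Neural stem cells can become oligodendrocyte precursors, which need Olig and Sox10 factors and later switch on myelin genes. Replication genes are controlled by E2F factors, and mitotic genes rise later in the cycle. Many interferon-stimulated genes carry a short response element in their promoters. In bulk RNA, more cells of a type and more RNA per cell cannot be told apart.

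Levels were measured on Illumina MouseWG-6 bead arrays and are given as log2 intensities after background correction and quantile normalization, on which a probe without signal reads about 4.2. Of 45260 probes, 21740 passed the detection filter and were tested, and they represented 11087 named genes. Between 16750 and 19186 probes were detected on each of the 5 arrays. The limma fit gave each of the 14 groups its own mean on all 40 arrays, and a probe was called at a Benjamini-Hochberg adjusted p under 0.05.

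The 2 arrays at 144 h were less alike than any 2 arrays at 96 h. Their levels correlated at 0.966 over the tested probes, against 0.9948 between 96 h replicates A and B, 0.9722 between A and C and 0.9767 between B and C. Array numbers in the labels fall into runs: A and B of both times lie in one run and C in another, and the labels do not say that a run is a batch. Replicate A at 144 h was low in mitotic genes. Replicate C at 96 h was low in oligodendrocyte and hypoxia genes and high in heat shock genes. The vehicle array of the same letter and time stood on the same side of its group in each of these, by the list medians and values given below. Matched differences of A and of C are given beside the group differences where they bear on a result.

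The gene by gene agreement between the matched differences was weak. Over 11087 genes the median absolute difference was 0.297 for A and 0.195 for C on the log2 scale, and the correlation between them was -0.021, which is a description across genes and has no test. Both differences were positive for 22.5% of genes and negative for 25.5%, and they had opposite signs for 51.9%. Both 144 h arrays lay above all 96 h arrays for 6.87% of genes and below them for 8.47%.

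**Figure D1:**
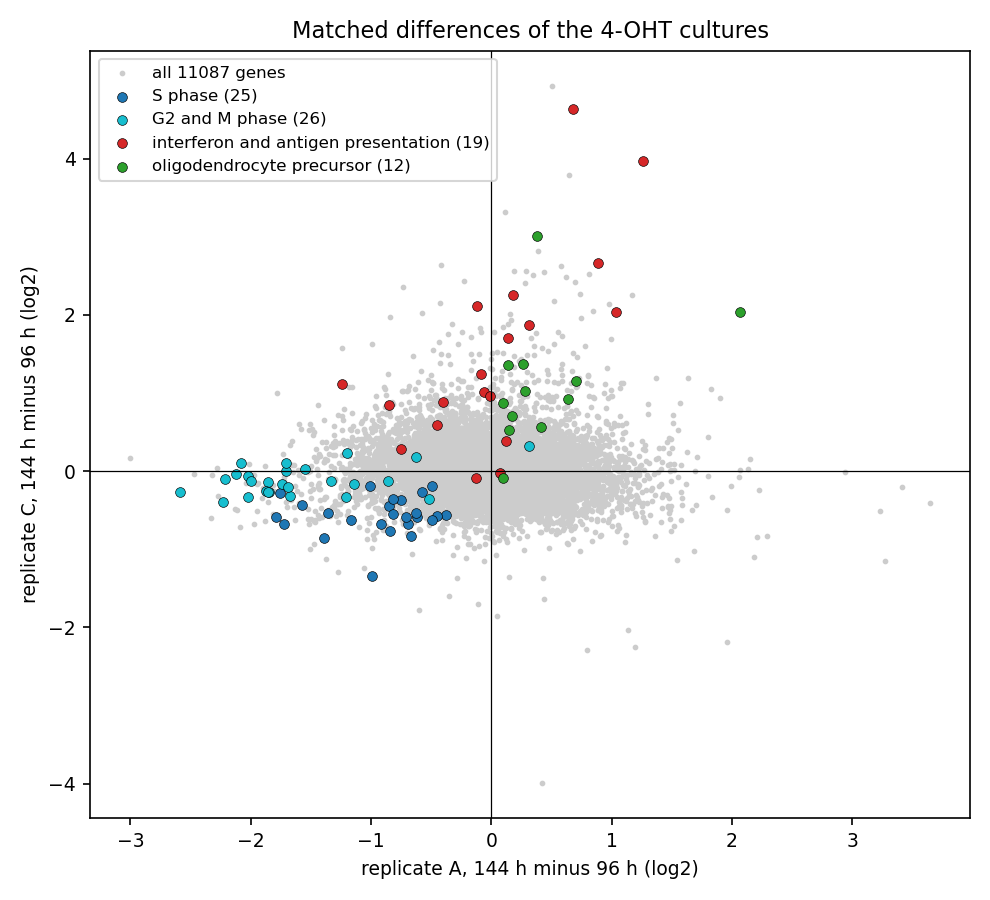
Difference in log2 intensity between 144 h and 96 h for replicate A (x axis) and replicate C (y axis), with 1 point for each of 11087 genes and 4 gene lists in colour. S phase genes lie at the lower left, G2 and M phase genes spread to the left along the axis, and most interferon genes lie above the horizontal line.

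The contrast called 4 probes, all higher at 144 h (0.0184% of probes tested) and none lower. At an unadjusted p under 0.05 it held 981 probes, 456 higher and 525 lower. The median difference over all genes was -0.007. The same fit called 361 probes between the vehicle groups of the same times, 138 higher (0.635%) and 223 lower (1.03%). By gene these were 80 higher (0.722% of genes) and 154 lower (1.39%), and median scaling in place of quantile normalization split the vehicle probes into 115 higher and 2 lower. The difference between the 4-OHT change and the vehicle change was called for 2 probes (0.0092%). For a single value, an exact permutation test over 2 and 3 arrays cannot give a two-sided p below 0.2 when the one-sided p is doubled. The calls therefore rest on the spread estimated over all groups. In data simulated with these group sizes, 54% of probes shifted by 1 log2 unit were called, 10% of those shifted by 0.5, and 94% of those shifted by 2. There 5 probes that had not been shifted were called too. The simulated noise was independent between arrays. On the real arrays residuals correlated, at 0.671 between 4-OHT and vehicle 144 h replicate A, so the simulated shares do not carry over to them.

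Of the called probes 3 name a gene, and each was dim at 96 h. With 1 probe for each gene, the one with the highest mean level, 2 genes were called, Mylk2 and Khdrbs2. Mylk2, which encodes the myosin light chain kinase of skeletal muscle, had 5.56 and 6.53 on the 144 h arrays, against 4.58, 4.32 and 4.39 on the 96 h arrays. The groups did not overlap, and replicate C was the higher of the 144 h arrays. The matched differences were 0.98 for A and 2.14 for C. Its mean was 3.06-fold higher at 144 h (1.61 ± 0.28 SE on the log2 scale, limma adjusted p = 0.0224). The probe passed the detection threshold on only 1 of the 3 arrays at 96 h. In vehicle it had 7.92 and 8.87 at 144 h, against 5.18, 5.24 and 6.12 at 96 h, a rise of 2.88 (limma adjusted p = 2.39e-08). The vehicle rise was the larger, by a difference of -1.27 for 4-OHT minus vehicle that was not called (adjusted p = 1). A probe without a gene name in the annotation, ILMN_2506244, showed the same pattern, with 5.41 and 6.25 at 144 h, against 4.46, 4.45 and 4.60 at 96 h (1.33 ± 0.24, adjusted p = 0.0263).

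Tnfaip2, a gene known to be induced by tumour necrosis factor, was called on 1 of its 3 probes. That probe had 6.13 and 5.61 at 144 h, against 4.71, 4.74 and 4.91 at 96 h. Both 144 h arrays were above every 96 h array, with A the higher and matched differences of 1.42 for A and 0.71 for C, and the mean was 2.12-fold higher (1.09 ± 0.19 SE, limma adjusted p = 0.0224). Its other probes were not called. The one with the highest mean over all arrays had 5.36 and 6.07 at 144 h, against 4.69, 4.51 and 4.79 at 96 h (1.05, adjusted p = 0.432). The third had 4.86 and 5.16 at 144 h, against 4.47, 4.20 and 4.85 at 96 h (0.50, adjusted p = 1). On both of these C was the higher 144 h array. In vehicle the called probe rose by 0.88 (limma adjusted p = 0.0135). Khdrbs2, which encodes a neural RNA-binding protein of the STAR family, had 5.93 and 6.01 at 144 h, against 5.24, 5.35 and 4.85 at 96 h. Here the 144 h arrays nearly coincided, the matched differences were 0.69 for A and 1.17 for C, and the mean was 1.77-fold higher (0.83 ± 0.15 SE, limma adjusted p = 0.0224). Vehicle arrays had 4.24 and 4.57 for Khdrbs2 at 144 h, against 4.39, 4.35 and 4.21 at 96 h, a difference of 0.09 that was not called. The difference between the changes of Khdrbs2 in 4-OHT and vehicle cultures, 0.74, was not called either (adjusted p = 0.817).

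All 4 calls were lost with the deposited normalized values of the authors (adjusted p of 0.133 to 0.19) and when the spread was taken from the 5 arrays alone (adjusted p = 1). They were also lost without 96 h replicate A (0.0622 for Mylk2 and Khdrbs2, 0.155 for Tnfaip2), and for each gene without other single arrays. These were 144 h replicate C (0.0631) and 96 h replicate B (0.0769) for Mylk2, 144 h replicate A (0.447) and 96 h replicate B (0.0895) for Tnfaip2, and 96 h replicate C (0.0736) for Khdrbs2.

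With the array run as a block, 26 probes were called, 24 higher (0.11%) and 2 lower (0.12% in all). With the replicate letter as a block, 11 probes were called, all higher (0.0506%). Mylk2 (1.53), Tnfaip2 (1.06) and Khdrbs2 (0.81) were among them, with limma adjusted p of 2.99e-05, 0.00442 and 0.00601. Within the first run, where replicate A at 144 h was set against A and B at 96 h, 5095 probes were called, 2552 higher and 2543 lower (23.4%). That fit has 1 array at 144 h, which is assumed to vary as little as the close A and B arrays of the other groups. The second run holds replicate C alone and allows no test.

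**Figure D2:**
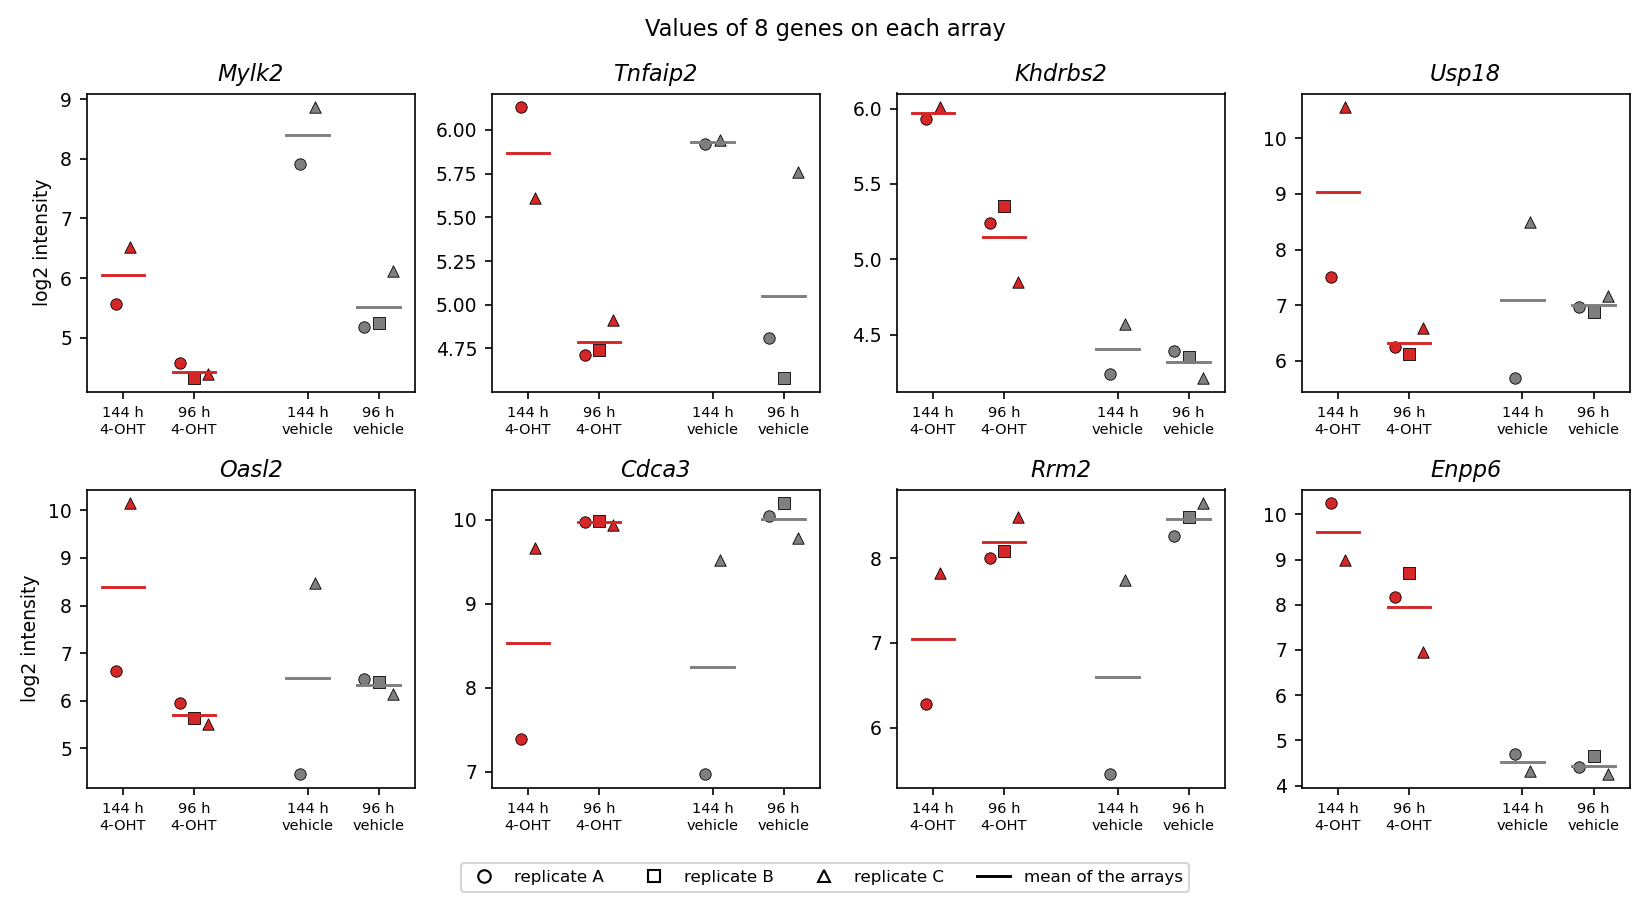
Log2 intensity of 8 genes on each array, with 4-OHT at 144 h and 96 h in red, then vehicle at 144 h and 96 h in grey. Circles, squares and triangles are replicates A, B and C, and lines are group means. The Mylk2 and Khdrbs2 probes and the Tnfaip2 probe shown, 1 of 3 for that gene, were called in 4-OHT, and Usp18, Oasl2, Cdca3, Rrm2 and Enpp6 were not.

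Of the genes closest to the threshold on the higher side, several belong to the interferon response. Interferon-stimulated genes restrict viruses and present antigen, and 19 genes of the interferon and antigen presentation list were tested. None was called (0.018% of genes were). Both 144 h arrays lay above all 96 h arrays for 7 of the 19, beside 6.87% of all genes. The median difference was 0.52, made up of -0.01 for replicate A and 1.12 for replicate C. For 17 of 19 genes the difference of C was positive, and for 9 of 19 that of A was. Without 144 h replicate C the median was 0.15, and without A it was 0.94. The median level of the list was 6.79 on 144 h replicate A and 8.30 on C, against 6.27, 6.13 and 6.38 at 96 h.

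Usp18, which encodes the protease that removes ISG15 and damps the interferon receptor, had 7.51 and 10.56 at 144 h, against 6.25, 6.13 and 6.59 at 96 h. Both arrays at 144 h were higher, and C was far above A. The difference was 2.71 ± 0.55 (SE), with an adjusted p of 0.0657 in limma, and a second Usp18 probe gave 2.24 (adjusted p = 0.065). Oasl2, an oligoadenylate synthetase-like gene, had 6.63 and 10.15 at 144 h, against 5.95, 5.63 and 5.51 at 96 h. Irf9, a transcription factor gene of the interferon response, had 7.40 and 9.35 at 144 h, against 6.35, 6.44 and 7.31 at 96 h, a difference of 1.67 (adjusted p = 0.245). Ifit3, an interferon-induced antiviral gene, had 6.19 and 8.30 at 144 h, against 5.29, 5.08 and 5.63 at 96 h. In each of these genes the C array at 144 h stood above the other 4 arrays by more than the A array did.

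Dtx3l, a ubiquitin ligase gene of the same response, had 6.64 and 8.53 at 144 h, against 5.90, 5.83 and 6.26 at 96 h (1.59, adjusted p = 0.0779), while its dimmer probe gave -0.14 (adjusted p = 1). Irgm2, an immunity-related GTPase gene, had 5.13 and 6.82 at 144 h, against 4.39, 4.52 and 4.86 at 96 h (1.39, adjusted p = 0.0892). Not all members followed. Irf1, which encodes an interferon-induced transcription factor, had 8.71 and 8.88 at 144 h, against 8.64, 8.57 and 8.90 at 96 h. Tap1, which encodes a peptide transporter of antigen presentation, had 4.62 and 6.10 at 144 h, against 5.37, 5.67 and 5.80 at 96 h, with A below and C above every 96 h array.

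With the array run as a block, 3 of the 19 genes were called higher (0.11% of probes were), and with the replicate letter as a block 2 of the 19 were (0.0506%). These were Usp18 (2.56, limma adjusted p = 0.00254), Irf9 (1.54, 0.00264) and Ifit3 (1.76, 0.025). Within the first run 4 of the 19 were called higher and 4 lower (11.7% of probes each way). The high C array was seen in vehicle too. The median of the list was 5.91 on vehicle 144 h replicate A and 8.09 on C, against 6.96, 6.88 and 6.97 at 96 h. The part of the letter or run in the high values on C was not tested. The change was above that of vehicle in 15 of 19 genes, beside 49.5% of all genes, and no difference between agents was called (smallest adjusted p = 0.954).

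Promoters were read for the 250 bases before the start of transcription (RefSeq, GRCm38.p6), because members of this list were high together on replicate C. The interferon-stimulated response element was searched on both strands as GAAA, any 2 bases and GAAA. It was present for 9 of the 18 list genes with a promoter in the table (50%), and for 2.95% of the 8979 tested genes with one. Known interferon genes often carry the element, so the share describes the list and not its change between the times. The 4 windows of 60 bases shown belong to the genes with the smallest unadjusted p among those with a match, and capitals mark the matches.
Ifit3 (chr19:34583382-34583441, plus strand): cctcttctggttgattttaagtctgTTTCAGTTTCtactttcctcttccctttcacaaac
Igtp (chr11:58199496-58199555, plus strand): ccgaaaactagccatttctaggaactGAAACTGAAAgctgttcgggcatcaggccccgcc
Bst2 (chr8:71537562-71537621, minus strand): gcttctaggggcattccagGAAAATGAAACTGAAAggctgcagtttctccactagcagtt
Isg15 (chr4:156200850-156200909, minus strand): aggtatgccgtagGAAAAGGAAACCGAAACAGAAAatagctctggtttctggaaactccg
Igtp, an immunity-related GTPase gene, had 5.35 and 7.04 at 144 h, against 5.21, 4.94 and 5.32 at 96 h. Isg15, the ubiquitin-like modifier, had 4.75 and 6.07 at 144 h, against 4.84, 4.63 and 4.83 at 96 h. Bst2, which tethers budding virus to the cell, had 4.61 and 5.20 at 144 h, against 4.67, 4.31 and 4.18 at 96 h. In Igtp and Isg15 the C arrays carried nearly the whole difference, with matched values of 1.71 and 1.24, and in Bst2 the matched difference of A was -0.06.

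Genes of DNA replication were lower at 144 h in both matched pairs. Of 25 S phase genes tested, 25 had negative differences in A and in C, where 25.5% of all genes did, and none was called (0.018% of genes were). The median difference was -0.58 for the groups, -0.82 for A and -0.57 for C. The groups did not overlap for 7 of the 25, all lower at 144 h, beside 8.47% of genes. Overlap came from replicate C, which was high in these genes at both times: the median level was 6.96 on 144 h replicate A and 8.24 on C, against 8, 8.10 and 8.78 on 96 h replicates A, B and C.

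Rrm2, the regulated subunit of ribonucleotide reductase, had 6.28 and 7.82 at 144 h, against 8, 8.08 and 8.49 at 96 h. Both 144 h arrays were lower than every 96 h array, and the difference was -1.14 ± 0.36 (SE), not called (adjusted p = 0.844). Cdc45, a helicase factor of replication forks, had 6.42 and 8.24 at 144 h, against 8.21, 8.10 and 8.83 at 96 h. Chaf1b, a histone chaperone subunit, had 7 and 7.92 at 144 h, against 8.4, 8.25 and 8.78 at 96 h, again without overlap. The helicase subunit gene Mcm6 differed less, although again without overlap, and had 9.81 and 10.06 at 144 h, against 10.26, 10.42 and 10.63 at 96 h. Ccne1, the cyclin of S phase entry, had 5.55 and 6.15 at 144 h, against 6.17, 6.22 and 6.73 at 96 h. E2f1, whose product drives these genes, had 6.29 and 7.51 at 144 h, against 7.14, 6.92 and 7.95 at 96 h, with an overlap.

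The median of the S phase list was -0.10 without 144 h replicate A, -1.12 without 144 h replicate C and -0.34 without 96 h replicate C. Within the first run 24 of the 25 genes were called lower (11.7% of probes), and with the run as a block none was. Vehicle cultures had the larger difference. Of the same 25 genes 19 fell between the vehicle groups (1.39% of genes did), with a median of -1.50. With the deposited values of the authors 18 were called, with median scaling 1 (median -1.25), and without vehicle 96 h replicate C 12. Over all 21740 probes 189, 2 and 194 were lower in these settings. None was called with the spread from the 5 vehicle arrays alone (median -1.50). The median was -0.87 without vehicle 144 h replicate A and -2.1 without C, each of which leaves 1 array at 144 h. The 4-OHT change was above the vehicle change in 24 of the 25, beside 49.5% of all genes. No single gene of the list was called for that difference (smallest adjusted p = 1), although 9 had an unadjusted p under 0.05.

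Mcm5, a helicase subunit, shows the pattern. It had 9.29 and 10.44 at 144 h, against 10.12, 10.23 and 10.99 at 96 h in 4-OHT, a difference of -0.58. In vehicle it had 7.34 and 9.64 at 144 h, against 10.42, 10.53 and 11.07 at 96 h, and it fell by 2.18 in the fit on all arrays (limma adjusted p = 0.00253). In both agents A was the lower array at 144 h.

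Words bound by E2F factors (TTTCCCGC, TTTCGCGC, TTTGGCGC and TTTGCCGC, both strands) were found in the same 250 bases for 6 of 21 S phase genes with a promoter in the table (28.6%), and for 3.9% of all tested genes with one. Replication genes are known to be controlled by E2F factors, so this share too describes the list and not its change. Mcm6 and Uhrf1 are shown as the members of a list that was lower as a whole, with the matches in capitals.
Uhrf1 (chr17:56304102-56304161, plus strand): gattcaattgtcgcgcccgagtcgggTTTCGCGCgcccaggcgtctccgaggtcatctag
Mcm6 (chr1:128359719-128359778, minus strand): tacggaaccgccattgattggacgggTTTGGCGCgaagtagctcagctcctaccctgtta
Uhrf1, which encodes a factor that keeps DNA methylation through replication, had 9.33 and 11.07 at 144 h, against 11.08, 11.02 and 11.36 at 96 h, so that only A stood clearly lower.

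Genes of G2 and mitosis differed in A and hardly in C. Of 26 tested, 25 were lower in A, 20 in C and 20 in both, where 25.5% of all genes were lower in both. None was called (0.018% of genes were). The median difference was -1.72 for A, -0.14 for C and -0.94 for the groups. The median level was 7.19 on 144 h replicate A and 9.13 on C, against 9.31, 9.29 and 9.29 at 96 h. Cdca3, needed for entry into mitosis, had 7.39 and 9.67 at 144 h, against 9.98, 9.99 and 9.94 at 96 h (-1.44 ± 0.43 SE, adjusted p = 0.716). Birc5, the inhibitor of apoptosis that acts at the centromere, had 7.04 and 9.67 at 144 h, against 9.27, 9.28 and 10.06 at 96 h. Aurka, a spindle kinase, had 7.33 and 9.41 at 144 h, against 9.35, 9.31 and 9.47 at 96 h. Top2a, the topoisomerase of dividing cells, had 7.89 and 10.36 at 144 h, against 10.10, 10.23 and 10.46 at 96 h. In these 4 genes the matched difference of C was between -0.40 and -0.06, and in Cdk1, the kinase that starts mitosis, replicate C had 10.65 at 144 h, against 10.66 at 96 h.

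Without 144 h replicate A the median of this list was 0.01, and without C it was -1.77. Vehicle had the same split by letter, with medians of -2.62 for A and -0.21 for C, and 11 of the 26 genes fell there (1.39% of genes did). None of the 26 was called with median scaling, where 2 of all 21740 probes were lower, or with the spread from the 5 vehicle arrays alone. Without vehicle 96 h replicate A 1 was called (87 of all probes were lower), without B 1 (103) and without C 10 (194). The vehicle median was -0.43 without 144 h replicate A and -2.57 without C, each of which leaves 1 array at 144 h. Within the first run 24 of the 26 were called lower in 4-OHT (11.7% of probes were), and with the run as a block none was. Hmmr was the 1 member on the other side (4.54 and 4.49 at 144 h, against 4.23, 4.22 and 4.17 at 96 h), near the level of a probe without signal.

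Beside the cycle genes, Cdkn2b, the p15 inhibitor of CDK4 and CDK6, had 8.58 and 8.60 at 144 h, against 7.56, 7.67 and 7.97 at 96 h (0.85, adjusted p = 1). Rbl1, the p107 pocket protein, had 5.98 and 7.74 at 144 h, against 7.35, 7.41 and 8.07 at 96 h. Of the 15 D cyclins, CDK inhibitors and pocket proteins tested, 7 differences were positive and 8 negative, and the median was -0.02. Of 15 p53 targets 14 were negative, where 48.6% of all genes were positive. Their median was -0.31, made up of -0.53 for A and -0.21 for C. Trp53inp1, a p53-induced stress gene, had 9.66 and 10.69 at 144 h, against 11.08, 11.13 and 10.93 at 96 h.

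**Figure D3:**
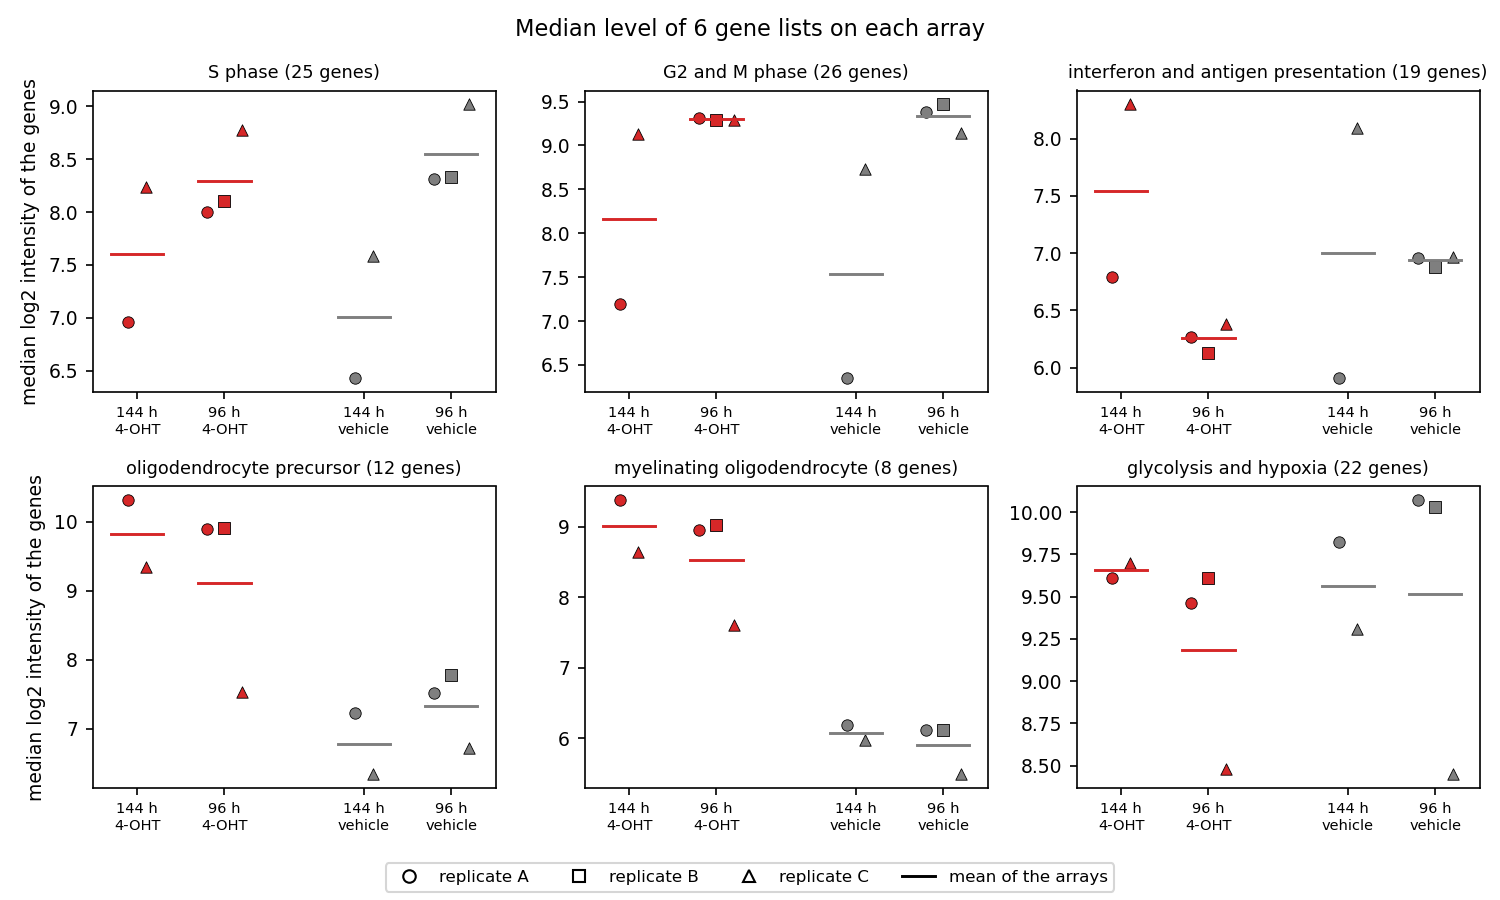
Median log2 intensity of the tested genes of 6 lists on each array, with 4-OHT at 144 h and 96 h in red and vehicle at 144 h and 96 h in grey. Circles, squares and triangles are replicates A, B and C, and lines are means of the arrays. The G2 and M phase list is at 7.19 on 4-OHT 144 h replicate A and at 9.13 on C, and the oligodendrocyte precursor list is at 7.53 on 96 h replicate C.

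The oligodendrocyte precursor list, which also holds the newly formed oligodendrocyte markers Enpp6 and Bcas1, was mostly positive in both letters. Of 12 tested, 11 had positive differences in A and in C, where 22.5% of all genes did, 3 lay above all 96 h arrays on both 144 h arrays (6.87% of all genes did), and none was called. The median was 0.49, with 0.27 for A and 0.98 for C. The C array at 96 h was the lowest of its group in 12 of 12 genes, beside 43.3% of all genes. The median level was 10.31 on 144 h replicate A and 9.34 on C, against 9.89, 9.90 and 7.53 at 96 h. Without 96 h replicate C the median of the list was 0.13, without 144 h replicate A it was 0.22, and without 144 h replicate C it was 0.74.

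Enpp6, a choline phosphodiesterase gene that marks newly formed oligodendrocytes, had 10.25 and 8.99 at 144 h, against 8.18, 8.71 and 6.95 at 96 h. The groups did not overlap, and the matched differences were nearly equal at 2.07 for A and 2.04 for C. The group difference was 1.67 ± 0.48 (SE) and was not called (adjusted p = 0.523). Bcas1, another marker of that stage, averaged 13.17 ± 0.47 at 144 h (SD, n = 2), against 12.41 ± 0.62 at 96 h (SD, n = 3), with 12.85 on the lower 144 h array and 12.81 on the highest 96 h array (limma adjusted p = 0.489). Lhfpl3, a membrane protein gene of precursors, had 10.38 and 10.60 at 144 h, against 10.21, 10.36 and 9.89 at 96 h. Sox10, the lineage factor, had 11.04 and 9.68 at 144 h, against 10.66, 10.39 and 6.67 at 96 h, so that C at 144 h still lay below A and B at 96 h. Olig1 was level, with 14.01 and 13.75 at 144 h, against 13.91, 13.88 and 13.84 at 96 h.

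Vehicle arrays were lower in these markers, with a median level of 7.22 and 6.34 at 144 h, against 7.51, 7.77 and 6.72 at 96 h, and had a median difference of -0.09. The 4-OHT change was above the vehicle change in 12 of 12 markers, beside 49.5% of all genes. Bcas1 differed by 1.19 between the agents, Pdgfra, the receptor of precursors, by 1.37, and neither was called (smallest adjusted p of the list = 0.556). Within the first run 5 of the 12 were called higher (11.7% of probes) and none lower.

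Of 14 myelinating oligodendrocyte markers on the array, 5 were detected on none of the 5 arrays: Mog, Mobp, Mal, Ermn and Aspa. For the 8 markers tested, 7 group differences were positive, beside 48.6% of all genes, and none was called. In both letters 4 were positive, where 22.5% of all genes were. The median was 0.34, with 0.58 for A and 0.79 for C. It was 0.12 without 96 h replicate C and 0.75 without 144 h replicate C. Mag, the myelin-associated glycoprotein, had 8.75 and 7.15 at 144 h, against 7.58, 7.38 and 4.88 at 96 h (1.33, adjusted p = 0.856). Mbp, myelin basic protein, has 5 probes and had 12.19 and 11.35 on its brightest probe at 144 h, against 11.54, 11.54 and 7.56 at 96 h. A dimmer Mbp probe had 5.99 and 5.22 at 144 h, against 4.87, 5.05 and 4.22 at 96 h, without overlap (0.89 ± 0.19 SE, adjusted p = 0.0771), and the run block called it (0.91, limma adjusted p = 0.0199). The other 3 Mbp probes gave 0.39, 0.39 and 1.09, overlapped between the groups and had adjusted p of 1. Gal3st1, which makes sulfatide, had 7.94 and 8.44 at 144 h, against 8.54, 8.51 and 7.65 at 96 h, and Cldn11, a tight junction gene of myelin, was highest on 96 h replicate C (12.02).

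Genes of glycolysis and the hypoxia response were positive in 22 of 22 group differences, beside 48.6% of all genes. The median was 0.38, and no gene of the list was called. Replicate C gave 0.76 and A gave 0.15. For 20 of the 22 genes 96 h replicate C was the lowest 96 h array, beside 43.3% of all genes, and without it the median was 0.11. Vegfa, the hypoxia-induced angiogenic factor, had 12.25 and 11.34 at 144 h, against 11.67, 11.91 and 8.71 at 96 h. P4ha2, a collagen prolyl hydroxylase gene, had 6.78 and 6.51 at 144 h, against 5.94, 5.92 and 4.47 at 96 h. Egln3, a hypoxia-induced prolyl hydroxylase gene, had 9.11 and 8.71 at 144 h, against 8.49, 8.57 and 6.22 at 96 h. Pfkp, a phosphofructokinase gene, had no low C array at 96 h. It had 7.51 and 7.57 at 144 h, against 6.40, 6.57 and 6.96 at 96 h (0.90, adjusted p = 0.984). Vehicle C at 96 h was low in the same list (8.45, against 10.07 and 10.03 for A and B).

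**Figure D4:**
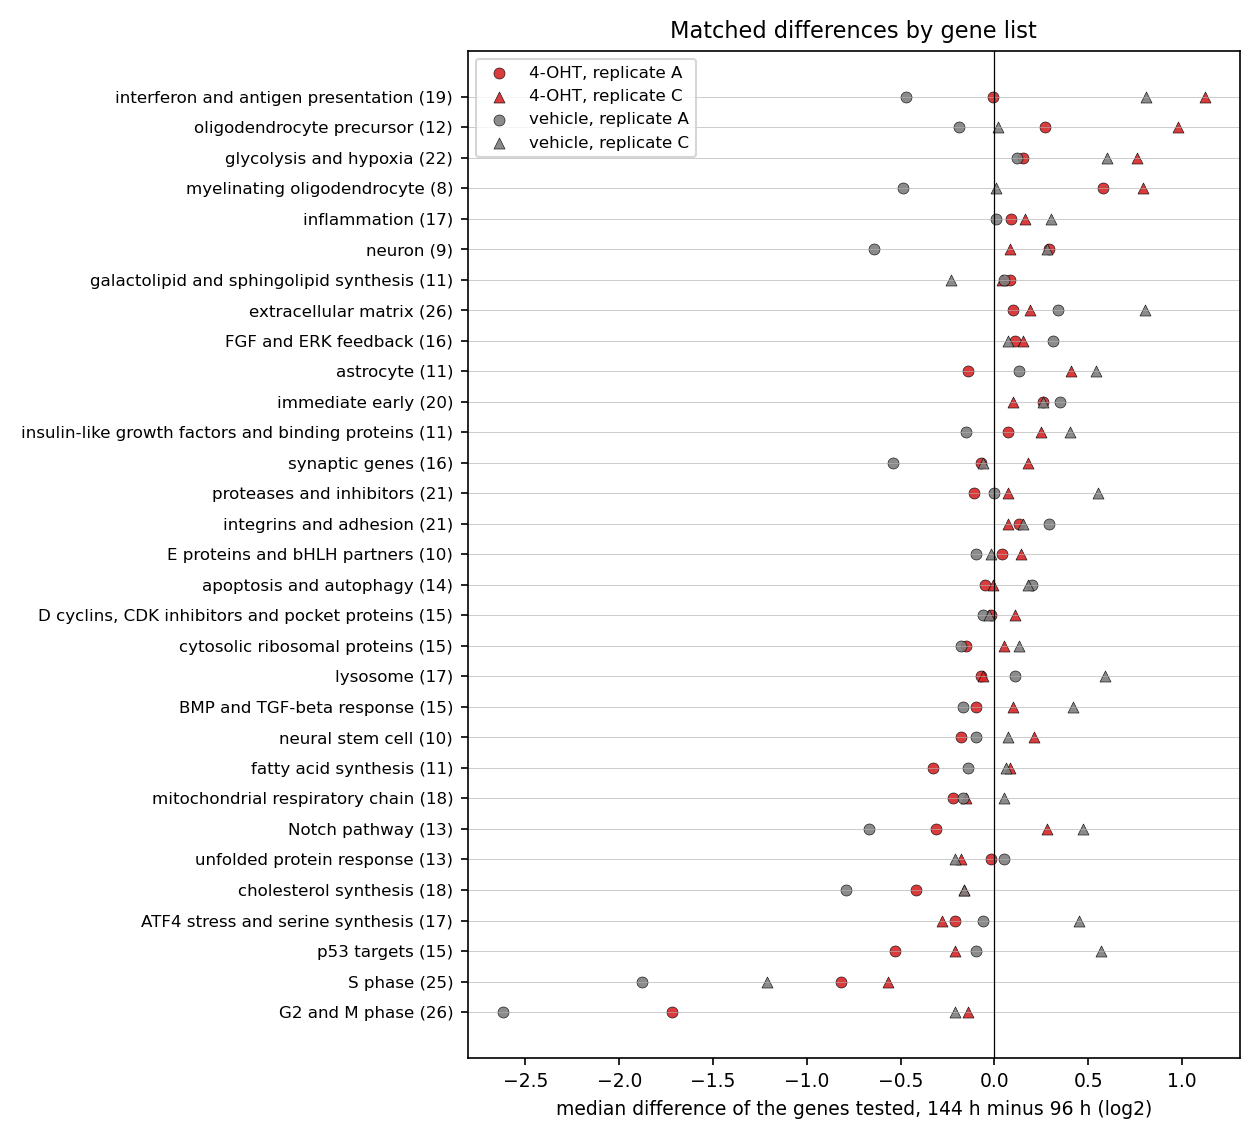
Median log2 difference between 144 h and 96 h of the tested genes (number in brackets) of each list with at least 8 of them. Replicates are A (circles) and C (triangles) of 4-OHT (red) and vehicle (grey). Circle and triangle of 4-OHT lie far apart for G2 and M phase (-1.72 and -0.14) and for interferon genes (-0.01 and 1.12), and close together for S phase (-0.82 and -0.57).

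The remaining lists had medians between -0.31 and 0.44, and no member of any of them was called. Of 18 cholesterol synthesis genes 15 had negative differences, with a median of -0.21, where 48.6% of all genes had positive ones. Fdps, which makes farnesyl pyrophosphate, had 10.87 and 11.96 at 144 h, against 11.71, 11.62 and 12.27 at 96 h. The median was -0.28 for 17 genes of the ATF4 stress response. For 18 genes of the mitochondrial respiratory chain it was -0.12, and 13 were negative in both letters, beside 25.5% of all genes. Ndufa4, a respiratory chain subunit, had 11.18 and 12.06 at 144 h, against 11.99, 11.95 and 12.53 at 96 h, and was called lower with the run as a block (-0.62, limma adjusted p = 0.0336). Cytosolic ribosomal protein genes had a median of -0.06, neural stem cell markers -0.09, astrocyte markers 0.10 and neuronal markers 0.24. Gfap, the astrocyte filament, had 5.54 and 6.01 at 144 h, against 4.96, 4.86 and 4.85 at 96 h (0.89, adjusted p = 1).

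Some single genes of signalling and adhesion differed far more in A than in C. Timp1, an inhibitor of metalloproteinases, had 9.21 and 7.72 at 144 h, against 6.27, 6.13 and 7.73 at 96 h, with matched differences of 2.94 and -0.01. Hbegf, an EGF receptor ligand, had 8.82 and 6.38 at 144 h, against 6.62, 6.42 and 7.23 at 96 h. Itga7, a laminin receptor subunit, had 8.57 and 8.32 at 144 h, against 6.42, 6.10 and 8.16 at 96 h, with 2.15 in A and 0.16 in C. In these 3 genes 144 h replicate A was the highest of the 4-OHT arrays at both times, and 96 h replicate C was the highest of its group. The matched differences of vehicle A were positive in the same genes, with 2.26 for Timp1, 2.51 for Hbegf and 2.59 for Itga7. Those of vehicle C were 1.78, -0.50 and 1.09. Lfng, which modifies Notch receptors, had 4.35 and 5.76 at 144 h, against 5.96, 6.14 and 6.01 at 96 h. Tgfb1, the growth factor, was close in both letters and had 5.04 and 4.75 at 144 h, against 4.65, 4.27 and 4.26 at 96 h (0.51 ± 0.14 SE, adjusted p = 0.511).

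None of the Id genes was called, and their differences were small beside those between agents. Id1 was not detected on any of the 5 arrays and read 4.17 and 4.20 at 144 h, against 4.27, 4.30 and 4.29 at 96 h, where vehicle had 8.59 to 9.37. Id2 on its brightest probe had 4.68 and 4.80 at 144 h, against 5.11, 4.93 and 4.95 at 96 h (-0.26, adjusted p = 1), where vehicle had 9.47 to 10.43. On that probe both 144 h arrays lay below the 96 h arrays, while the other 2 Id2 probes overlapped (0.02 and -0.55). Id4, the member that was not deleted, had 8.56 and 8.07 at 144 h, against 8.09, 8.34 and 7.97 at 96 h (0.18, adjusted p = 1). Id3, absent from all these cells, did not pass the filter and read 4.24 and 4.51 at 144 h, against 4.52, 4.55 and 4.37 at 96 h. Probe positions relative to the deleted exons are not given in the sources used here.

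Rap1gap, which encodes a protein that switches the RAP1 GTPase off, had 10.33 and 10.61 on its brightest probe at 144 h, against 10.72, 10.85 and 9.57 at 96 h. The matched differences had opposite signs, -0.39 in A and 1.03 in C. The E proteins and their partners split evenly, with 5 of 10 positive and a median of 0.00. Olig2, a lineage factor, had 8.65 and 8.05 at 144 h, against 8.24, 7.98 and 7.49 at 96 h. Hes5, a Notch target, had 7.76 and 8.68 at 144 h, against 8.95, 8.94 and 7.61 at 96 h.

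Other genes near the threshold on the higher side came from several pathways, and none of them was called. Cavin1, a coat protein of caveolae, had 8.21 and 7.69 at 144 h, against 6.70, 6.63 and 6.97 at 96 h (1.18 ± 0.24 SE, adjusted p = 0.065). In vehicle it rose by 1.09 (limma adjusted p = 0.0129). Ptx3, a soluble pattern recognition gene, had 5.39 and 6.20 at 144 h, against 4.67, 4.79 and 4.65 at 96 h. Vehicle arrays rose by 1.33 on this probe (limma adjusted p = 0.00885). Tbc1d16, a Rab GTPase activator, had 5.22 and 4.75 at 144 h, against 4.32, 4.45 and 4.28 at 96 h. Dusp15, a phosphatase gene, had 5.48 and 4.89 on its dimmer probe at 144 h, against 4.59, 4.51 and 4.60 at 96 h. The brighter Dusp15 probe overlapped, with 8.52 and 7.56 at 144 h, against 7.73, 7.38 and 7.10 at 96 h (0.64). Lox, a collagen cross-linking enzyme, had 4.93 and 5.20 at 144 h, against 4.67, 4.86 and 4.39 at 96 h. Aldh1a3, which makes retinoic acid, had 6.61 and 5.13 at 144 h, against 4.31, 4.23 and 5.06 at 96 h, so that the whole difference lay in A. Its brighter probe overlapped, with 7.77 and 6.85 at 144 h, against 5.58, 5.77 and 7.94 at 96 h, and matched differences of 2.19 in A and -1.09 in C. Ptchd1 was not above background at 96 h and was at least 1.67-fold higher at 144 h (adjusted p = 0.277), a bound that sets the 144 h mean against the dimmest detected signal of each 96 h array. In vehicle Ptchd1 rose by 1.59 (limma adjusted p = 0.000157). The vehicle differences of Tbc1d16 (-0.20), Lox (0.01) and the dimmer probes of Dusp15 (0.18) and Aldh1a3 (0.79) were not called.

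On the lower side the smallest adjusted p was 0.065. Rbmxl2, an RNA-binding protein gene of germ cells, had 4.57 and 4.21 at 144 h, against 5.45, 5.38 and 4.60 at 96 h (-0.75 ± 0.15 SE), and Rag1, a recombinase gene of lymphocytes, had 4.37 and 4.49 at 144 h, against 5.22, 5.20 and 4.77 at 96 h. Both genes were dim, and vehicle arrays detected neither. Map2k6, a kinase that activates p38, had 4.99 and 5.75 at 144 h, against 6.31, 6.30 and 6.20 at 96 h (-0.90, adjusted p = 0.277), and its other probes gave -0.56 and -0.25 (adjusted p of 1). Traf3ip2, an adaptor of the interleukin 17 receptor, had 5.93 and 7.02 at 144 h, against 7.40, 7.42 and 7.94 at 96 h.

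Mdh1, cytosolic malate dehydrogenase, had 8.05 and 8.31 at 144 h, against 8.54, 8.83 and 8.95 at 96 h, with matched differences of -0.49 and -0.64. Cox6a2, a cytochrome c oxidase subunit of striated muscle, had 5.23 and 4.54 at 144 h, against 6.50, 6.34 and 5.82 at 96 h. Its matched differences were nearly equal (-1.27 and -1.29), while vehicle had 5.84 and 8.09 at 144 h, against 6.14, 6.36 and 7.04 at 96 h. The others named on this side were BC028528, Ckap2, Gas7, Acot10, Shcbp1, a second probe of Cdca3, Commd3, Dhrs7 and Mtmr14, with group differences between -1.52 and -0.61. On the probes named, the matched difference of A was larger in size than that of C in all of them. Both differences were negative because the naming rule required it. The brightest probes of Dhrs7 and Mtmr14 were others and overlapped between the groups. They gave -0.45 for Dhrs7, with 0.28 in C, and -0.24 for Mtmr14. The brightest probe of BC028528 did not overlap (-0.71).

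Most microglia, endothelial and mural markers were at the background of the arrays, while astrocyte and neuron markers were in part detected. Of 11 microglia markers on the array 10 were detected on none of the 5 arrays, as were 6 of 8 endothelial markers, and Pecam1, Cdh5, Cx3cr1 and C1qa read 4.15 to 4.34. The summed level of the microglia list was 47.5 and 47.8 at 144 h, against 47.4, 48.1 and 47.5 at 96 h. Of 9 mural and fibroblast markers 7 were detected on none, Col1a1, Col1a2, Col3a1 and Pdgfrb among them. Acta2, smooth muscle actin, was detected on all 5 and had 8.39 and 7.40 at 144 h, against 6.43, 6.12 and 9.58 at 96 h. Of 15 neuron markers 7 were detected on all 5 arrays, and of 12 astrocyte markers 10 were. The summed neuron list was 97.6 and 93.3 at 144 h, against 95.5, 94.8 and 90.0 at 96 h, and the astrocyte list was 86.0 and 90.1 at 144 h, against 87.0, 86.2 and 86.0 at 96 h. Of 9 ependymal or choroid plexus markers 4 were detected on none. Otx2, a homeobox gene of the choroid plexus, had 6.91 and 7.65 at 144 h, against 7.38, 7.72 and 7.91 at 96 h. Aqp1, a water channel, had 6.08 and 5.09 at 144 h, against 5.76, 5.85 and 4.43 at 96 h. The part of these cell types in the results was not tested. The label neural stem cell can be set beside 8 of 12 stem cell markers detected on all 5 arrays, and beside 12 of 12 markers of the oligodendrocyte precursor list.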

How the data were processed

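Total RNA was labelled with biotin and hybridized to Illumina bead arrays, per the labels' protocols. The deposited table of the authors held raw bead intensity values and a detection p-value per probe, and a second deposited table held log2 values that the authors made with quantile normalization in lumi (per the labels and design text of the series, with GenomeStudio named in the submitters' processing notes; versions and the transform are not given in the sources used here). Of 45281 probes, 21 rows out of step with their columns were left out. Intensities were corrected and quantile normalized with neqc (limma 3.58.1, R 4.3.3, offset 16). Probes with a detection p under 0.01 on at least 3 of the 40 arrays were tested. A probe named a gene where the platform annotation gave 1 symbol (34872 probes; 18 had several and 10370 none).

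One limma fit held a mean for each group (26 residual degrees of freedom, trended and robust eBayes), with Benjamini-Hochberg adjustment over all probes. A list used 1 probe per gene, the one with the highest mean level. Named genes were those called without overlap and with both matched differences in the same direction. Genes with the smallest p under the same conditions followed, up to 15 in each direction. Each was given on its probe with the smallest p that met the conditions. Also named were the 2 members of each list with the largest absolute difference, the genes called between agents, and Id1 to Id4 and Rap1gap. Other list members are examples chosen after their values were seen. The fit was tested on simulated data. Its alternatives were another normalization, filter, set of arrays, block, weighting and prior, and each array left out. A group at detection p of 0.05 or more on every array counted as not above background. The 144 h and 96 h arrays, gene lists and motifs were chosen with earlier results of these data known. Array number limits the precision: 2 arrays at 144 h.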

Additional observations from a re-analysis of the deposited data

Results flagged for a closer look

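The changes of 2 genes between 144 h and 96 h differed between 4-OHT and vehicle cultures by a test of that difference itself. Plxdc1, which encodes a plexin-domain membrane protein, has 2 probes. The one that passed was not detected on any 4-OHT array, with 4.34 and 4.26 at 144 h, against 4.45, 4.34 and 4.26 at 96 h. Vehicle arrays had 5.82 and 5.76 at 144 h, against 4.73, 4.59 and 4.18 at 96 h. The difference between the changes was -1.34 ± 0.17 (SE, limma adjusted p = 0.000144). Since the probe was not above background in 4-OHT at either time, its change there was not measurable and the value gives no size for it. The second probe, detected on 1 4-OHT array at each time, gave -0.62 (adjusted p = 1). Stac2, which encodes an adaptor of calcium channels, had 4.37 and 4.62 at 144 h, against 4.40, 4.22 and 4.23 at 96 h in 4-OHT cultures, and 6.23 and 5.90 at 144 h, against 4.86, 4.50 and 4.33 at 96 h in vehicle. In 4-OHT it was detected on 1 of 2 arrays at 144 h and was not above background at 96 h, so its change there is likewise not a measured size. The difference between the changes was -1.29 ± 0.18 (SE, limma adjusted p = 0.000245). Within the first run of arrays the values were -1.21 for Plxdc1 and -1.49 for Stac2, and with the run as a block both were called. Both calls were lost with the deposited log2 values (adjusted p of 0.0675 and 0.116) and with array weights (0.198 and 0.679).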

How the results depend on the processing

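With 2 arrays at 144 h, the counts of calls moved with nearly every choice, and the causes were not tested. The 4 probes called between 144 h and 96 h in 4-OHT became 0 with the deposited log2 values, with only the 5 arrays or only the 10 arrays of 96 h and 144 h, with the 10 arrays and the replicate block, and under treat with a fold of 1.5. At an unadjusted p under 0.05 limma then held between 39 (treat) and 1167 probes. They became 10 with median scaling (9 higher, 1 lower), 14 without the probe filter (13 and 1), 10 with the filter on the groups compared, 26 with the run as a fixed block, 14 with it as a random block, 5095 in the first run alone, 21 with array weights (19 and 2) and 2 with 1 probe per gene. The replicate block gave 11, all higher; only 2 letters match, and the labels do not say what they share. Leaving out 1 array gave 0 to 413: 37 without 144 h replicate A, 413 without 144 h replicate C (149 higher, 264 lower), 0 without 96 h replicate A, 3 without B and 7 without C. Mylk2 lost its call without 144 h replicate C and 96 h replicate B, Tnfaip2 without 144 h replicate A and 96 h replicate B, and Khdrbs2 without 96 h replicate C and with array weights.

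The 2 probes that differed between the agents became 0 with the deposited values, with the groups or the 10 arrays alone, with the 10 arrays and the replicate block, and with array weights, where 344 to 650 probes had an unadjusted p under 0.05 in limma. They became 4 without the filter and with the run as a fixed or random block, 1390 in the first run alone, and 2 to 125 with 1 array left out, 14 without 4-OHT 144 h replicate A, 5 without C and 4 without 96 h replicate B, and 31 without vehicle 144 h replicate A and 125 without C. The 361 vehicle probes became 117 with median scaling (115 higher, 2 lower), 0 with the groups or the 10 arrays alone (1276 and 1701 at an unadjusted p under 0.05 in limma), 26 with the 10 arrays and the replicate block, 674 and 597 with the run as a fixed and a random block, 7804 in the first run alone, 201 with weights, and 105 to 1764 with 1 array left out (105 without 144 h replicate A, 1764 without C, 145 without 96 h replicate A and 174 without B).

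The G2 and M phase median ranged from -1.77 to 0.01 with 1 array left out and was -0.14 in the second run alone. With single arrays left out, Id2 on its dim probe ranged up to 0.06, Id4 up to 0.43 and, on its other probe, 0.65, and the 3 Rap1gap probes up to 0.32, 0.53 and 0.37. Small differences reversed: Id2 gave 0.00 without 144 h replicate C and -0.03 without 96 h replicate A; Id4 gave -0.06 without 144 h replicate A, and on its other probe -0.17 there and -0.02 without 96 h replicate C. The 3 Rap1gap probes gave -0.46, -0.48 and -0.21 in the first run alone, -0.32, -0.11 and -0.09 without 96 h replicate C, 2 of them -0.05 and -0.21 without 144 h replicate C, and 1 gave -0.32 with array weights.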

Other observations

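The genes with the largest matched differences were not the same in A and C. They were chosen after their values were seen and carry no test. In A, 3 neuropeptide and vesicle genes had the largest positive differences. Vgf had 8.49 and 5.84 at 144 h, against 4.85, 4.84 and 6.24 at 96 h, Scg2 had 8.42 and 5.64 at 144 h, against 5.01, 5.12 and 5.84 at 96 h, and Syt4 had 7.61 and 5.96 at 144 h, against 4.34, 4.46 and 7.11 at 96 h. Each was high on A at 144 h, while C at 144 h was below C at 96 h. The matched differences of vehicle A were positive in the same genes, 2.20, 2.57 and 5.12.

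In C, the 10 most negative differences came with a high 96 h array and belonged to Hspa1a, Hspb1, Ccn2, Acta2, Hmox1, Atf3, Cryab, Hspb8, Ccn1 and Nppb. Hspa1a, the inducible HSP70, had 6.08 and 6.26 at 144 h, against 5.66, 5.77 and 10.25 at 96 h. Hspb1 had 5.14 and 4.31 at 144 h, against 4.35, 4.50 and 6.6 at 96 h. Hmox1, haem oxygenase, had 6.17 and 5.65 at 144 h, against 5.03, 4.84 and 7.68 at 96 h, and Atf3, a stress-induced transcription factor, had 4.32 and 4.61 at 144 h, against 4.27, 4.32 and 6.46 at 96 h. Ccn2, a matricellular growth factor gene, had 5.80 and 4.64 at 144 h, against 4.61, 4.51 and 6.88 at 96 h. The vehicle C array at 96 h was high in Hspa1a and Atf3 too, with 10.95 for Hspa1a and 7.16 for Atf3. The 10 largest positive differences in C belonged to Ifi27l2a, Oasl2, Usp18, Mbp, Lgals9, Sox10, Gbp3, Ifit3, Lgals3bp and Vegfa. Ifi27l2a, an interferon-induced gene, had 5.14 and 9.36 at 144 h, against 4.64, 4.50 and 4.43 at 96 h, and Lgals9, a galectin, had 4.62 and 7.72 at 144 h, against 4.51, 4.36 and 4.41 at 96 h.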
